A study of Bos taurus with 6 samples.

Results

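The elastic fibre and fibulin genes were examined in bovine fetal fibroblasts (bEFs), the matrix-building cells of connective tissue, through 10 members named by symbol: ELN, FBN1, FBN2, FBLN1, FBLN2, FBLN5, FBLN7, EFEMP1, EFEMP2 and MFAP5. All 10 were found, among 17663 genes on chromosomes 1 to 29 in the expression table. FT cells came from 3 fetuses with the genotype fat-1 transgenic, which carry an exogenous gene for an enzyme that turns n-6 into n-3 polyunsaturated fatty acids. WT cells came from 3 wild-type fetuses of Luxi cattle. Fetuses of both groups were 50 to 60 days old, the cells of both were primary cultures, and each fetus gave 1 poly(A) RNA library, named FT_1 to FT_3 and WT_1 to WT_3. The breed of the FT fetuses, the promoter of the transgene and whether the FT fetuses shared a founder or a donor cell are not given in the sources used here.

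Elastic fibres give skin, arteries, lung and ligaments their recoil. They consist of a core of cross-linked elastin on a scaffold of microfibrils, which are built from fibrillins and decorated by proteins such as MFAP5. Fibulins are calcium-binding glycoproteins that bridge elastin, microfibrils, basement membranes and cells, and some of them bring the cross-linking enzymes to the elastin. Fibroblasts and smooth muscle cells are major sources of these proteins, and much of the elastin of the body is laid down before and soon after birth.

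Total counts were 63366834, 48167642 and 54204446 in FT_1, FT_2 and FT_3, and 69777641, 51310741 and 54271927 in WT_1, WT_2 and WT_3. The members took 0.448%, 1.25% and 1.28% of the counts in FT_1, FT_2 and FT_3, against 0.570%, 0.504% and 0.604% in WT_1, WT_2 and WT_3. FT_1 stood apart from the other libraries of its group. The variation of genes beyond counting noise (biological coefficient of variation) was 65.7% for FT_1 against FT_2 and 66.6% for FT_1 against FT_3. For FT_2 against FT_3 it was 8.39%, and for pairs of WT libraries 10.1–13.6%. Each result on the members is therefore given with all 6 libraries and, where it changed, without FT_1. FT_1 was singled out from these same data. Standard errors and p values without it understate the spread among FT fetuses, and calls made without it are descriptive.

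The cell type label was checked against marker genes. The sample records call the cells fibroblasts, but their extraction protocol speaks of RNA of an adipose type for all 6 libraries. Summed over 9 fibroblast markers, the FPKM (fragments relative to gene length and library size) was 6776, 16989 and 16716 in FT_1, FT_2 and FT_3, against 17743, 17210 and 17289 in WT_1, WT_2 and WT_3. Vimentin (VIM) had the highest mean over the 6 libraries, although DCN was above it in FT_1 and FT_2, and all 9 were detected in every library. By edgeR, 1 of the 9 was called, PDGFRA, which rose (adjusted p = 0.0053; all genes 20.1% higher and 18.9% lower). For VIM, COL1A2 and COL3A1 the FT values all lay below the WT range, as in 36.9% of all tested genes. VIM had a log2 fold change of -1.17 and was not called with edgeR (adjusted p = 0.0902) but was called lower with DESeq2 and limma (adjusted p = 0.0128 and 0.0462). Without FT_1, 5 fibroblast markers were called higher and 1 lower beside 30.6% and 31.5% of all genes, the lower one VIM (edgeR, adjusted p = 1.06e-05). Epithelial markers had their highest sum in FT_1. Their summed FPKM over 5 genes was 378.35, 11.85 and 11.27 in FT_1, FT_2 and FT_3, against 10.03, 7.83 and 13.90 in WT cells. KRT5, the keratin of basal epithelial cells, had the highest mean over the 6 libraries through FT_1, while CDH1 was above it in the other 5. KRT5 had an FPKM of 171.54, 2.57 and 1.63 in FT_1, FT_2 and FT_3, and both KRT5 and KRT14 were listed at 0 in all 3 WT libraries. EPCAM, an adhesion protein of most epithelia, was at 0.57 in FT_1 and listed at 0 in the other 5 libraries. Of 4 epithelial markers tested with edgeR, 1 was called higher, KRT15 (adjusted p = 0.0437; 20.1% of all genes), and without FT_1 it was 3 (KRT5, KRT14 and KRT15; 30.6% of all genes).

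Smooth muscle markers were higher in the FT group, and so was the mesothelial sum, largely through 1 gene. The summed FPKM of 7 mesothelial markers was 310.1, 46.39 and 47.06 in FT_1, FT_2 and FT_3, against 2.35, 3.51 and 3.34 in WT cells. Mesothelin (MSLN) made up 198.65, 44.93 and 46.18 of these sums in FT_1, FT_2 and FT_3, and was the 1 gene called of 4 tested (edgeR, adjusted p = 0.00346; 20.1% of all genes). Without FT_1, 3 of the 4 were called higher (MSLN, KRT8 and KRT18), beside 30.6% of all genes. KRT8 had 84.14, 0.95 and 0.61 and KRT18 had 11.18, 0.34 and 0.18 in FT_1, FT_2 and FT_3, and both were listed at 0 in WT cells. UPK3B had 1.03, 0.10 and 0.09 in FT_1, FT_2 and FT_3 against 0.20 to 0.25 in WT libraries, and UPK1B had 8.86 in FT_1 and was listed at 0 in all others but WT_2 (0.03). The gene WT1 (not the library WT_1), a transcription factor of the mesothelium, was listed at 0 in all 3 FT libraries and stood at 0.03 to 0.05 in WT libraries. Smooth muscle markers, whose highest mean was that of the actin gene ACTA2, summed to 2533, 3830 and 3685 in FT_1, FT_2 and FT_3 and to 1115, 1095 and 1224 in WT_1, WT_2 and WT_3. By edgeR, 8 of the 9 smooth muscle markers rose in FT cells, beside 20.1% of all genes, the myosin gene MYH11 being the exception (adjusted p = 0.0665). In bulk RNA, fewer cells of a type and less RNA per cell cannot be told apart, and the part of these marker differences in the results on the members was not tested.

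**Figure D1:**
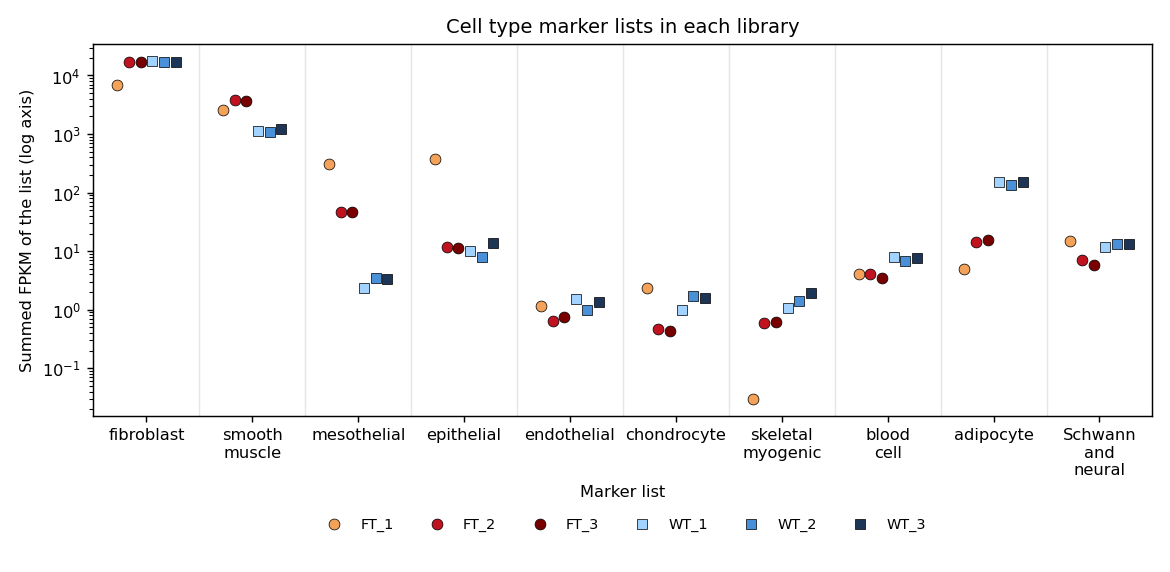
Summed FPKM of each marker list in each library on a log axis, with circles for FT and squares for WT. FT_1 was the lowest library for the fibroblast list (6776) and the highest for the epithelial list (378.35), and smooth muscle and mesothelial lists were higher in all 3 FT libraries than in all 3 WT libraries.

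FT and WT cells were compared to learn which members differed between the genotypes. Raw counts were tested with edgeR's quasi-likelihood test over 13482 genes, and a gene was called at a Benjamini-Hochberg adjusted p under 0.05. FBLN1, FBLN2 and EFEMP1 rose in FT cells, FBN1 fell, and the other 6 members did not pass. The 3 of 10 members called higher stand beside 20.1% of all tested genes, and the 1 of 10 called lower beside 18.9%. Without FT_1, 6 members were called higher (ELN, FBLN1, FBLN2, FBLN5, EFEMP1 and MFAP5) and 2 lower (FBN1 and FBLN7), where the background was 30.6% higher and 31.5% lower of 13765 genes. No test of the members as a list was made, and nothing particular to them is read from these counts.

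The libraries of the groups did not overlap in 4 members. FBN2, FBLN2 and EFEMP1 had every FT library above every WT library, as had 21.8% of all tested genes, and FBN1 had every FT library below, as had 36.9%. With 3 libraries per group, the smallest p an exact two-sided permutation test can reach is 0.1. FT_1 was at least 2-fold below both FT_2 and FT_3 in 4 members (ELN, FBLN1, FBLN5 and MFAP5), which 10.2% of tested genes also showed, and at least 2-fold above both in 1 (FBLN7), as in 10.4% of tested genes. The median log2 fold change of the members was 1.07, against 0.03 over all tested genes. With library totals alone as scaling, the median of all genes was -0.12 and 37.6% of called genes were higher, against 51.6% with the TMM scaling used here, while each of the 4 called members had the same direction and call under every scaling tried.

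**Figure D2:**
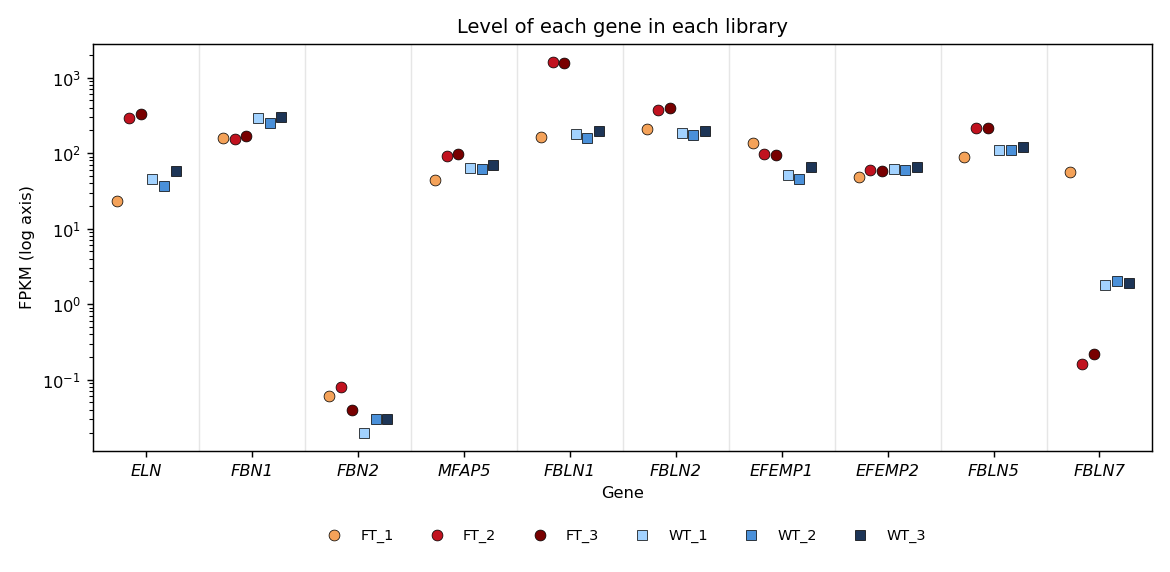
FPKM of the 10 genes in each library on a log axis, with circles for FT and squares for WT. FT_2 and FT_3 sit close together in every gene but the barely detected FBN2, while FT_1 lies with or below the WT libraries for ELN, FBLN1, FBLN5 and MFAP5 and far above all others for FBLN7 (55.61).

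Elastin, the rubber-like core protein of the fibre, is encoded by ELN (ENSBTAG00000019517, chromosome 25, 33277644 to 33310763). Its FPKM was 23.41, 289.06 and 324.07 in FT_1, FT_2 and FT_3, and 45.82, 36.68 and 57.56 in WT_1, WT_2 and WT_3. FT_2 and FT_3 were far above all WT libraries and FT_1 was below all of them, so the groups overlapped. FT_2 reached 6.19 times and FT_3 6.94 times the WT mean, whereas FT_1 stood at 0.501 times. The log2 fold change was 2.35 (standard error 0.89) and was not called (edgeR, adjusted p = 0.0822). Without FT_1 it was 2.89 (standard error 0.15) and was called (edgeR, adjusted p = 3.6e-07). Among all 17663 genes ranked by FPKM, ELN took rank 2759, 197 and 173 in FT_1, FT_2 and FT_3, and ranks 1272 to 2061 in WT cells.

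Fibrillin-1, the main structural protein of microfibrils, is encoded by FBN1 (ENSBTAG00000002278, chromosome 10, 61653913 to 61919176), the gene mutated in Marfan syndrome. FPKM values were 159.45, 154.91 and 166.50 in FT_1, FT_2 and FT_3, and 293.94, 248.66 and 300.26 in WT_1, WT_2 and WT_3. Every FT library was below every WT library, and FT_1 lay between the other FT libraries. The mean was 160.3 ± 5.84 (SD, n = 3) in FT cells and 281.0 ± 28.1 (SD, n = 3) in WT cells. FBN1 fell by 0.65 in log2 units (standard error 0.12; edgeR, adjusted p = 0.00913), and its log2 fold change was -0.64 without FT_1. A microRNA gene inside FBN1 on the same strand had an FPKM of at most 0.1.

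Fibrillin-2 belongs to microfibrils of the embryo and fetus in particular and is encoded by FBN2 (ENSBTAG00000015307, chromosome 7, 25484714 to 25706699). It was barely detected. Counts were 38, 41 and 22 in FT_1, FT_2 and FT_3, and 13, 17 and 18 in WT_1, WT_2 and WT_3, with FPKM values from 0.02 to 0.08. The FT libraries were all above the WT libraries, but the exact 95% Poisson intervals of the nearest libraries, 13.8 to 33.3 counts in FT_3 and 10.7 to 28.4 in WT_3, overlapped, and such intervals cover counting error only. The log2 fold change of 1.28 (standard error 0.47) was not called (edgeR, adjusted p = 0.0766).

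FBN1 was by far the more abundant fibrillin in each library. On the FPKM scale FBN2 made up 0.0376%, 0.0516% and 0.0240% of the summed fibrillins in FT_1, FT_2 and FT_3, and 0.00680%, 0.0121% and 0.00999% in WT_1, WT_2 and WT_3. All 3 FT shares were above all 3 WT shares (exact two-sided permutation p = 0.1, the smallest possible). The FPKM of FBN2 has 2 decimals and only 1 significant digit, so these shares carry a large rounding error. In raw counts, which are not rounded, FBN1 over FBN2 was 2916, 1992 and 4495 in FT_1, FT_2 and FT_3. It was 17201, 8192 and 9864 in WT_1, WT_2 and WT_3. The FPKM of ELN per FPKM of FBN1, the fibre core against its scaffold, was 0.147, 1.87 and 1.95 in FT_1, FT_2 and FT_3, and 0.156, 0.148 and 0.192 in WT_1, WT_2 and WT_3. FT_1 lay just below the WT libraries, and the exact two-sided permutation p for the log2 ratio was 0.4.

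MFAP5 (ENSBTAG00000000310, chromosome 5, 101190160 to 101203715) encodes MAGP-2, a small glycoprotein bound to microfibrils. FPKM values were 43.60, 92.31 and 97.33 in FT_1, FT_2 and FT_3, and 63.54, 62.38 and 69.62 in WT_1, WT_2 and WT_3. As for ELN, FT_1 was the lowest of the 6 libraries and FT_2 and FT_3 were the highest. Its log2 fold change of 0.42 (standard error 0.31) was not called (edgeR, adjusted p = 0.322). Without FT_1 it was 0.71 (standard error 0.07) and was called (edgeR, adjusted p = 1.96e-05).

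Of the fibulins, FBLN1 (ENSBTAG00000012088, chromosome 5, 115888383 to 115968965) had the largest of the called rises with all 6 libraries. It encodes a glycoprotein found in elastic fibres, basement membranes and blood plasma that binds fibronectin. The FPKM was 163.01, 1580.80 and 1565.18 in FT_1, FT_2 and FT_3, and 178.07, 160.27 and 195.99 in WT_1, WT_2 and WT_3. FT_1 lay within the WT range, while FT_2 stood at 8.88 times and FT_3 at 8.79 times the WT mean. FBLN1 was rank 23 of all genes in FT_2 and rank 20 in FT_3, but rank 353 in FT_1 and 334 to 429 in WT cells. The log2 fold change was 2.80 (standard error 0.81; edgeR, adjusted p = 0.0383), and 3.31 without FT_1 (standard error 0.09; edgeR, adjusted p = 1.36e-08). The call with all 6 libraries was lost when any 1 of the other 5 libraries was left out (edgeR, adjusted p of 0.0935 to 0.133) and with limma on log2(FPKM + 1) (adjusted p = 0.11).

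FBLN2 (ENSBTAG00000004014, chromosome 22, 58328984 to 58398286) encodes a relative of fibulin-1 that binds elastin, fibrillin and basement membrane proteins. FPKM values were 211.25, 367.50 and 390.15 in FT_1, FT_2 and FT_3, and 182.70, 173.16 and 195.99 in WT_1, WT_2 and WT_3. Every FT library was above every WT library, but FT_1 stood at only 1.15 times the WT mean, against 1.998 times for FT_2 and 2.12 times for FT_3. FBLN2 rose by a log2 fold change of 0.98 (standard error 0.25; edgeR, adjusted p = 0.0264), or 1.21 without FT_1. The call was lost when any 1 of the other 5 libraries was left out (edgeR, adjusted p of 0.0739 to 0.102).

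EFEMP1 (ENSBTAG00000017448, chromosome 11, 38484912 to 38554752), which encodes fibulin-3, was higher in all 3 FT libraries, and highest in FT_1. FPKM values were 134.73, 98.32 and 93.39 in FT_1, FT_2 and FT_3, and 51.24, 45.34 and 66.39 in WT_1, WT_2 and WT_3. No FT library overlapped the WT range. The mean was 108.8 ± 22.6 (SD, n = 3) in FT cells and 54.3 ± 10.9 (SD, n = 3) in WT cells. EFEMP1 rose by a log2 fold change of 1.16 (standard error 0.20; edgeR, adjusted p = 0.00664) and 0.99 without FT_1. EFEMP1 and FBN1 kept their calls in all 15 alternatives at an adjusted p under 0.05, with adjusted p up to 0.0389 and 0.0499.

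EFEMP2 and FBLN5 encode fibulin-4 and fibulin-5, which help to guide elastin and lysyl oxidases into fibres. EFEMP2 (ENSBTAG00000021457, chromosome 29, 43984841 to 43992126) had the log2 fold change nearest to 0, with FPKM values of 48.44, 60.12 and 57.20 in FT_1, FT_2 and FT_3 and 61.45, 59.15 and 65.84 in WT_1, WT_2 and WT_3. The groups overlapped and the log2 fold change was -0.01 (standard error 0.11; edgeR, adjusted p = 0.956). It overlaps MUS81 on the opposite strand, at an FPKM of 3.76 to 5.2, and whether counting used strand is not given in the sources used here.

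FBLN5 (ENSBTAG00000018123, chromosome 21, 56567085 to 56659651) had FPKM values of 88.66, 213.83 and 217.39 in FT_1, FT_2 and FT_3, and 110.18, 111.19 and 119.80 in WT_1, WT_2 and WT_3. FT_1 was below all WT libraries, and FT_2 and FT_3 were above all of them. With all 6 libraries, a log2 fold change of 0.77 (standard error 0.35) was not called (edgeR, adjusted p = 0.128), and without FT_1 it was 1.09 (standard error 0.06) and called (edgeR, adjusted p = 6.05e-07).

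FBLN7 (ENSBTAG00000009230, chromosome 11, 245530 to 303203) encodes fibulin-7, a cell adhesion protein first described in developing teeth. It had an FPKM of 55.61, 0.16 and 0.22 in FT_1, FT_2 and FT_3, and 1.82, 2.0 and 1.91 in WT_1, WT_2 and WT_3. FT_1 was far above every WT library and FT_2 and FT_3 were far below every one. The counts behind these values were 10480, 24 and 36 in FT_1, FT_2 and FT_3, and 375, 304 and 307 in WT cells. The log2 fold change of 3.42 had a standard error of 2.06 and was not called (edgeR, adjusted p = 0.233). Without FT_1 it was -3.10 (standard error 0.23) and was called lower (edgeR, adjusted p = 3.05e-06). Its direction therefore turned when FT_1 was left out.

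**Figure D3:**
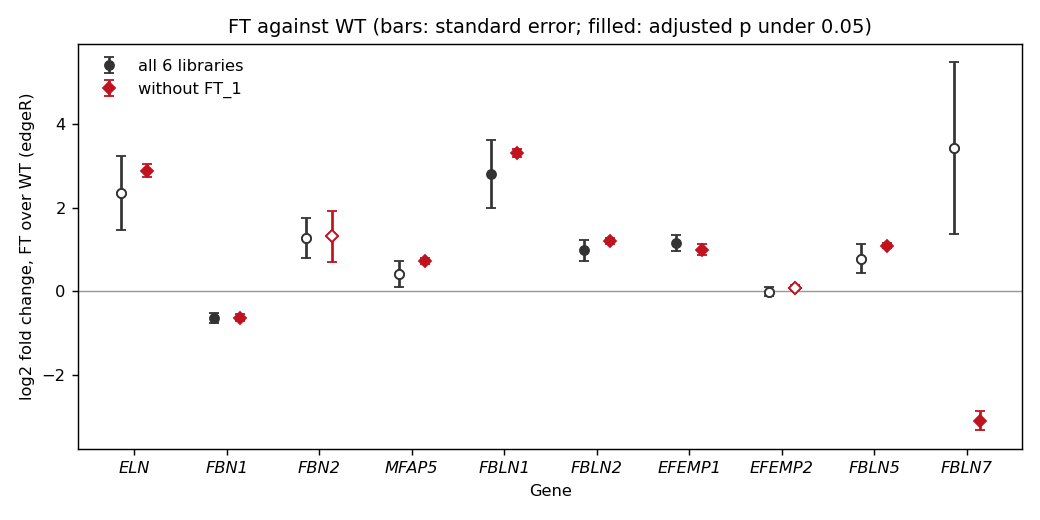
edgeR log2 fold change of FT over WT for each gene with all 6 libraries (circles) and without FT_1 (diamonds). Bars are standard errors and filled symbols had an adjusted p under 0.05. FBLN7 changed sign, from 3.42 to -3.10, and EFEMP2 moved from -0.01 to 0.09 without a call.

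In WT cells the mean FPKM fell in the order FBN1 (281.0), FBLN2 (183.9), FBLN1 (178.1), FBLN5 (113.7), MFAP5 (65.2), EFEMP2 (62.1), EFEMP1 (54.3), ELN (46.7), FBLN7 (1.91) and FBN2 (0.027). The ranges of FBLN2 and FBLN1 overlapped, as did those of each neighbouring pair from MFAP5 to ELN. In FT cells the order was FBLN1 (1103), FBLN2 (323.0), ELN (212.2), FBLN5 (173.3), FBN1 (160.3), EFEMP1 (108.8), MFAP5 (77.7), EFEMP2 (55.3), FBLN7 (18.7) and FBN2 (0.060). The ranges of neighbours overlapped except between FBN1 and EFEMP1 and between FBLN7 and FBN2, and FT_1 was at one end of most of these ranges. Over FT_2 and FT_3 alone the order of the means was the same, but that of FBLN7 was 0.19.

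The make-up of the fibulin family was compared within each library, using FBLN1, FBLN2, EFEMP1, EFEMP2, FBLN5, FBLN7 and hemicentin-1 (HMCN1). FBLN1 made up 22.8%, 65.1% and 64.5% of the summed fibulin FPKM in FT_1, FT_2 and FT_3, and 29.1%, 27.97% and 28.9% in WT_1, WT_2 and WT_3. The summed FPKM was 716.3, 2428 and 2426 in FT_1, FT_2 and FT_3, against 573.0 to 678.2 in WT cells. Of the FT shares, EFEMP1 took 18.8% in FT_1 and 4.05% and 3.85% in FT_2 and FT_3, against 7.91% to 9.79% in WT cells. The shares of EFEMP2 (mean 3.87% in FT, 10.0% in WT) and FBLN5 (mean 10.0% in FT, 18.4% in WT) were lower in all 3 FT libraries than in all 3 WT libraries. For each of these the exact two-sided permutation p was 0.1, or 0.35 after Benjamini-Hochberg adjustment over 7 fibulins, and the other 5 shares had p values of 0.2 to 1. The shares add up to the whole in each library, so a larger share of 1 fibulin lowers the others, and the 7 tests are not independent. A lower share is not a lower level. FBLN5 stood at 0.78, 1.88 and 1.91 times the WT mean FPKM in FT_1, FT_2 and FT_3, and the edgeR log2 fold change of EFEMP2 was -0.01. With raw counts in place of FPKM, the difference of the shares went from -6.16 to -3.55 percentage points for EFEMP2 and from -8.31 to -5.02 for FBLN5. HMCN1 itself, a very large relative, had FPKM values of 14.61, 107.34 and 102.32 in FT_1, FT_2 and FT_3, and 26.70, 21.84 and 32.30 in WT cells. It was not called (edgeR, adjusted p = 0.115) but was called higher without FT_1 (edgeR, adjusted p = 8.5e-07).

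**Figure D4:**
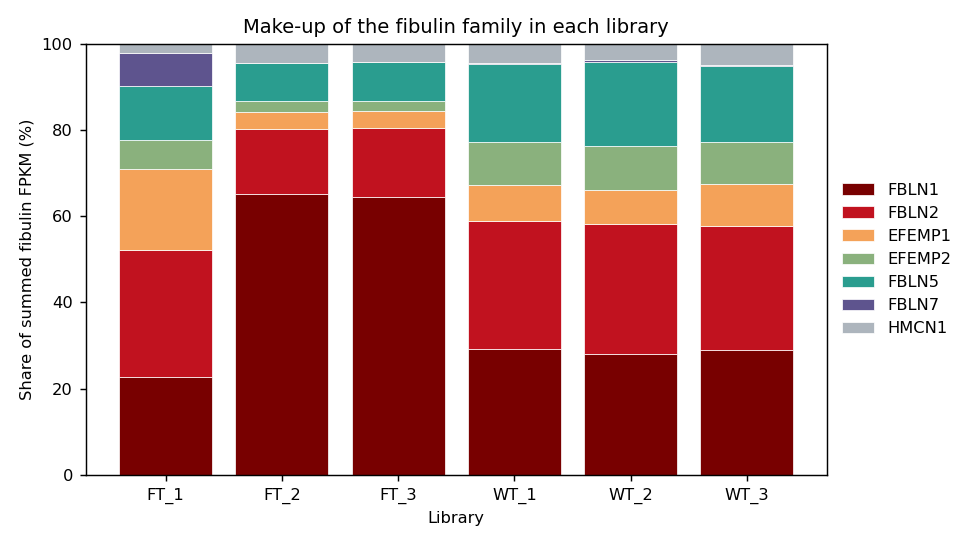
Share of each fibulin in the summed fibulin FPKM of each library, stacked to 100%. FBLN1 takes 65.1% in FT_2 and 64.5% in FT_3 but 22.8% in FT_1, below the 27.97% to 29.1% of WT libraries.

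Genes that build or bind microfibrils were examined next. Of 18 tested, 8 rose in FT cells and 0 fell with edgeR, beside 20.1% higher and 18.9% lower of all tested genes, with a median log2 fold change of 0.97 (0.53 without FT_1). At an unadjusted p under 0.05, 9 of the 18 were higher and 0 lower. No count over all genes at that threshold alone is given here. DESeq2 called 10 higher and 0 lower of 17 genes (ADAMTSL3 had no adjusted p), and limma 4 higher and 0 lower of 17 (without ADAMTSL2). Of all genes, DESeq2 called 3238 higher and 2966 lower of 17663, some of them without an adjusted p. Limma on log2(FPKM + 1) called 1837 higher and 3573 lower of 12247. Without FT_1 the edgeR counts were 12 higher and 3 lower (all genes 30.6% and 31.5%). THSD4, MFAP4 and LTBP4 had the largest rises. THSD4, which encodes ADAMTSL6, a promoter of fibrillin assembly, had FPKM values of 1.72, 28.14 and 28.01 in FT_1, FT_2 and FT_3, and 1.47, 1.22 and 2.22 in WT_1, WT_2 and WT_3. FT_1 lay in the WT range, and the log2 fold change was 3.73 (standard error 1.01; edgeR, adjusted p = 0.0311). With limma on log2(FPKM + 1) it was not called (adjusted p = 0.0894).

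MFAP4 and LTBP4 were higher in all 3 FT libraries. MFAP4, a microfibril-bound protein that takes part in elastic fibre assembly, stood at an FPKM of 1.69, 1.60 and 1.48 in FT_1, FT_2 and FT_3 and 0.20, 0.29 and 0.23 in WT_1, WT_2 and WT_3. It rose by a log2 fold change of 2.87 (standard error 0.29; edgeR, adjusted p = 0.00146). LTBP4, a latent TGF-beta binding protein needed for elastic fibre assembly, had 47.25, 63.75 and 69.63 in FT_1, FT_2 and FT_3 and 8.92, 8.42 and 10.99 in WT_1, WT_2 and WT_3, a log2 fold change of 2.83 (standard error 0.20; edgeR, adjusted p = 6.88e-04). LTBP2, the gene of the list with the highest mean over the 6 libraries, had 147.77 in FT_1 but 41.25 and 50.59 in FT_2 and FT_3, against 59.31 to 73.34 in WT cells, and was not called.

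Lysyl oxidases oxidise lysines of elastin and collagen so that the chains cross-link. Of the 5 genes, LOX, LOXL1 and LOXL2 rose in FT cells with edgeR, beside 20.1% of all genes. LOXL3 and LOXL4 did not pass, and 0 fell, beside 18.9% of all genes. The number lower was also 0 with DESeq2 and with limma. Of all genes, DESeq2 called 2966 lower of 17663 (some without an adjusted p) and limma 3573 of 12247. Without FT_1, edgeR called 3 higher and 1 lower, LOXL3 (all genes 30.6% and 31.5%). LOX, with the highest mean of the list, had FPKM values of 242.50, 344.49 and 359.95 in FT_1, FT_2 and FT_3, and 201.73, 173.88 and 206.36 in WT_1, WT_2 and WT_3. LOXL1, a cross-linker that binds tropoelastin, had 213.41, 262.77 and 242.61 in FT cells and 128.90 to 136.07 in WT cells. LOXL2 had 272.93, 162.29 and 171.55 in FT_1, FT_2 and FT_3 against 70.54 to 75.15 in WT cells. In all 3 genes every FT library, FT_1 included, was above every WT library, as in 21.8% of all tested genes. The log2 fold changes were 0.86, 1.02 and 1.63 for LOX, LOXL1 and LOXL2 (standard errors 0.18, 0.11 and 0.21; edgeR, adjusted p = 0.0139, 0.00168 and 0.00261).

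**Figure D5:**
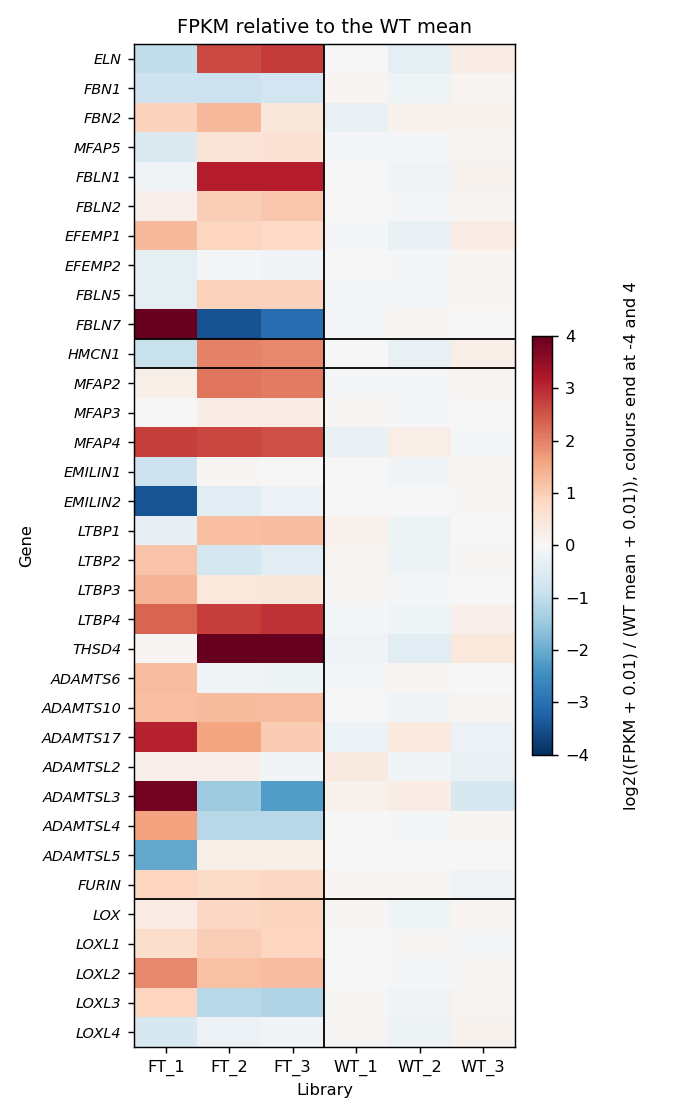
FPKM of the members (top block), HMCN1, microfibril-associated genes and lysyl oxidases, as log2 of the level plus 0.01 over the WT mean plus 0.01, 1 column per library, with red for above the WT mean. The colours end at -4 and 4. FT_2 and FT_3 share most colours, and FT_1 has the opposite colour in many rows, among them ELN, FBLN5, FBLN7, MFAP5, HMCN1, LTBP2 and LOXL3.

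Enzymes that degrade elastin, and their inhibitors, did not pass in either direction with edgeR and all 6 libraries. Of 9 tested genes, 0 were called (all genes 20.1% higher and 18.9% lower), and 1 was lower at an unadjusted p under 0.05. No count over all genes at that unadjusted threshold is given here. DESeq2 called 1 lower of 10 and limma 1 lower of 9, in each tool CTSL, a cathepsin gene. Of all genes, DESeq2 called 2966 lower of 17663 (some without an adjusted p) and limma 3573 of 12247. Without FT_1, edgeR called 3 higher and 4 lower (all genes 30.6% and 31.5%). Cathepsin K (CTSK), an elastin- and collagen-degrading protease with the highest mean of the list, had FPKM values of 266.45, 2998.13 and 3078.64 in FT_1, FT_2 and FT_3, and 2643.61, 2224.78 and 2532.98 in WT_1, WT_2 and WT_3. FT_1 was below all other libraries by a wide margin. MMP7 and MMP12 did not pass the count filter of edgeR, and were not called with DESeq2 (adjusted p = 0.284 and 0.335).

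Integrins are the cell surface receptors for several of these matrix proteins. Of 9 tested genes, 2 rose (ITGA8 and ITGB1) and 1 fell (ITGA4) with edgeR, beside 20.1% and 18.9% of all genes. ITGB6, at 354 counts in FT_1 and 0 in the other 5 libraries, did not pass the count filter of edgeR. DESeq2 called 3 higher and 1 lower of 9, adding ITGB8 (adjusted p = 0.0143). Limma called 2 higher and 2 lower of 9, adding ITGA5 as lower (adjusted p = 0.0497). Of all genes, DESeq2 called 3238 higher and 2966 lower of 17663 (some without an adjusted p), and limma 1837 and 3573 of 12247. Without FT_1, edgeR called 4 higher and 4 lower (all genes 30.6% and 31.5%). ITGA8, a partner of ITGB1 in a receptor for fibronectin and nephronectin, had FPKM values of 24.81, 113.33 and 113.76 in FT_1, FT_2 and FT_3, and 7.59, 6.0 and 8.63 in WT cells. Every FT library was above every WT library, and the log2 fold change was 3.67 (standard error 0.62; edgeR, adjusted p = 0.00641). ITGB1, the most abundant integrin gene, had 511.86, 575.82 and 589.66 against 427.10, 417.51 and 391.83 (log2 fold change 0.60, standard error 0.11; edgeR, adjusted p = 0.00953). ITGA4 had 0.01, 0.05 and 0.10 in FT cells against 1.94, 1.26 and 1.68 in WT cells, and fell by 4.70 in log2 units (standard error 0.68; edgeR, adjusted p = 0.00373).

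Matrix partners of fibulins and elastin moved in both directions. Of 9 tested genes, FN1, HSPG2 and NID2 rose and ACAN and LGALS3 fell with edgeR (all genes 20.1% higher and 18.9% lower). DCN, VCAN, NID1 and SOD3 did not pass, and BCAN did not pass the count filter. DESeq2 called 5 higher and 2 lower of 9, adding DCN and NID1 (adjusted p = 0.0169 for NID1), and limma 3 and 1 of 8. Of all genes, DESeq2 called 3238 higher and 2966 lower of 17663 (some without an adjusted p), and limma 1837 and 3573 of 12247. Without FT_1, edgeR called 7 higher and 2 lower (all genes 30.6% and 31.5%). Fibronectin (FN1), a ligand of fibulin-1, had FPKM values of 7499.22, 1779.76 and 1830.53 in FT_1, FT_2 and FT_3, and 284.28, 239.10 and 304.22 in WT_1, WT_2 and WT_3. All FT libraries were higher than all WT libraries, with FT_1 the highest (log2 fold change 3.89, standard error 0.67; edgeR, adjusted p = 0.00668). Without FT_1 the log2 fold change of FN1 was 2.88 (standard error 0.10; edgeR, adjusted p = 3.88e-08). Perlecan (HSPG2), a basement membrane proteoglycan, had 112.14, 79.25 and 86.60 in FT_1, FT_2 and FT_3 and 21.05 to 28 in WT cells, a rise of 2.12 in log2 units (standard error 0.18; edgeR, adjusted p = 0.00101). Nidogen-2 (NID2), a basement membrane linker, rose by a log2 fold change of 1.25 (standard error 0.11; edgeR, adjusted p = 0.00104). Galectin-3 (LGALS3) had an FPKM of 188.89, 309.86 and 313.57 in FT_1, FT_2 and FT_3 and 1373.73, 1518.20 and 1308.61 in WT cells, and fell by 2.21 in log2 units (standard error 0.23; edgeR, adjusted p = 0.0016). Aggrecan (ACAN), a cartilage proteoglycan that binds fibulins, was low in all libraries, at an FPKM of 0.03 to 0.19 in FT cells and 0.56 to 0.71 in WT cells, and fell by 2.26 in log2 units (standard error 0.66; edgeR, adjusted p = 0.0395). Decorin (DCN), with the highest mean of the list, was not called with edgeR (adjusted p = 0.129) but was called higher with DESeq2 (adjusted p = 0.0499). Without FT_1 its log2 fold change was 1.01 and it was called higher (edgeR, adjusted p = 1.61e-06). Over all 57 tested genes of the companion lists, 19 were higher, 3 lower and 35 not called, beside 20.1% higher and 18.9% lower of all tested genes, with a median log2 fold change of 0.61 (0.03 over all tested genes). Without FT_1 these numbers were 33, 17 and 7, beside 30.6% higher and 31.5% lower of all tested genes.

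The genes most like ELN in pattern were ranked by Pearson's r of log2(FPKM + 1) across the 6 libraries, among 10557 genes with a symbol and a mean FPKM of at least 1. They were ALDOC (r = 0.9996), SCUBE2 (0.998), TRAK2 (0.998), NFATC4 (0.998) and TCF4 (0.998). SCUBE2, for example, had FPKM values of 1.96, 21.04 and 22.21 in FT_1, FT_2 and FT_3, and 4.48, 3.45 and 4.74 in WT cells. The closest members were FBLN5 (0.996), FBLN1 (0.976), MFAP5 (0.947) and FBLN2 (0.927), and in each of these 4 FT_2 and FT_3 were the highest libraries. The 5 genes most like FBN1 were TTPAL, BDH2, RAB4B, RWDD2A and C7H5orf63, with r from 0.996 to 0.998. These are descriptions of 6 libraries that also share depth and composition.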

How the data were processed

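RNA of bEFs from 3 FT and 3 WT fetuses was analysed, 1 paired-end poly(A) library per fetus. The FPKM values deposited by the authors are fragments scaled by gene length and library size, with 2 decimals. The raw counts per gene deposited by the authors are whole numbers in the same table, with no normalization. Reads had been mapped by the authors with HISAT to a UCSC reference, and levels came from StringTie and edgeR. The submitters' processing notes name HISAT2 2.0, StringTie 1.3.0, Bowtie 0.12.2 and mm8, a mouse build, although the gene IDs are bovine. The cattle build, the annotation release and the strand setting are not given in the sources used here, so coordinates are printed as the table has them.

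Counts were tested in R 4.3.3 with edgeR 4.0.16 (filterByExpr, TMM, quasi-likelihood test, Benjamini-Hochberg adjustment over 13482 genes). Alternatives were other scalings and filters, DESeq2 1.42.0, limma 3.58.1 on log2(FPKM + 1) or log2(FPKM + 0.1), the call rule of the methods (p not adjusted, plus a fold cut), a replicate block and leaving out each library. The code was tested on simulated data that varied less than these libraries and held no library set apart like FT_1. That test checks the code and does not bear on the calls made here. Shares and ratios were tested by exact permutation in Python 3.11.15 with SciPy 1.17.1. The standard error is the absolute log2 fold change over the square root of F.

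All 10 members were analysed and passed the count filter, 1 row each, with the same symbol in a RefSeq gene table. Members and lists were chosen with earlier results of these data known. Named companion genes are the called genes with the largest change in each direction (up to 3), the most abundant gene and those behind counts of 5 or fewer with edgeR and all 6 libraries. Genes behind small counts under other settings are named only in part. GDF8, in the ligand list, is an older symbol of MSTN in the same list and was not analysed under that name. Of the listed companion genes, HMCN2, FBN3, EMILIN3, ELANE, TIMP1, SERPINA1, NCAN, BGN, AGT and GDF5 were not analysed here, nor were some of the markers, including TIE1, LRRN4, COL9A1, MYOD1, MYOG, PAX7, PTPRC and SOX10.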

Additional observations from a re-analysis of the deposited data

How the results depend on the processing

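The number of members called higher was 3, and 1 to 6 when each library was left out in turn, with 1 to 2 called lower. All genes called higher ranged from 1516 to 4215 and those called lower from 1531 to 4337 (2714 and 2547 with all libraries), and companion genes from 13 to 33 higher and from 2 to 17 lower. With the call rule of the methods (p not adjusted, plus a fold cut), 4 members were called higher (ELN, FBN2, FBLN1 and EFEMP1, with FBLN2 short of the fold; ELN and FBN2 had an unadjusted p of 0.0381 and 0.0347 and an adjusted p of 0.0822 and 0.0766 with edgeR) and 0 lower, since FBN1 changed by less than the fold required, with 1378 genes higher and 1208 lower; FBN1 had an unadjusted p under 0.05 and was called by edgeR, DESeq2 and limma at an adjusted p under 0.05. These 4 changes of members follow from the criterion by construction, and the cause of changes under other settings was not tested.

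The FBLN7 log2 fold change was -0.27 with limma on log2(FPKM + 0.1), -1.23 with a replicate block and -3.10 without FT_1, against 3.42 with all libraries. Leaving out each library gave -3.10 to 3.999. EFEMP2 went from -0.077 to 0.087 when libraries were left out (0.087 without FT_1, 0.033 without WT_3) and down to -0.174 with limma on log2(FPKM + 0.1), never called. For these reversals the cause was not tested. ELN was called with DESeq2 (adjusted p = 0.0371) and not with limma (adjusted p = 0.271), and its adjusted p ranged from 3.6e-07 to 0.272 over 15 alternatives. Left out in turn, the libraries gave an FBN2 share difference of 0.0212 to 0.0350 percentage points and an ELN to FBN1 log2 ratio difference of 1.67 to 3.54. With libraries left out, share differences in percentage points (FT minus WT) ranged from 15.0 to 36.2 for FBLN1, -14.0 to -6.87 for FBLN2, -4.74 to 2.74 for EFEMP1, -7.61 to -5.40 for EFEMP2, -9.47 to -7.69 for FBLN5, -0.302 to 3.58 for FBLN7 and -1.18 to 0.0074 for HMCN1 (-0.753 with all libraries, -3.59 with raw counts).

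Replicate numbers are shared by the groups but mark different fetuses. Deviations from the group mean correlated at -0.00041, -0.018 and 0.020 between same-numbered libraries, and not every library correlated best with its own number. The difference of FT_1 dominates the deviations of the FT libraries, so this check could miss a shared batch. No pairing by number was seen, and none was used in the main test. With the replicate block, 1 member was called higher and 1 lower, and 1838 genes were called higher and 1741 lower. FBLN1 and FBLN2 were not called there (edgeR, adjusted p = 0.133 and 0.0593), and of the named companion genes THSD4, ITGB1, ACAN and TGFB1 were not (edgeR, adjusted p = 0.112, 0.0571, 0.0702 and 0.0579). The cause was not tested. FBN2 had only 13 to 41 counts per library, and whether deeper libraries would change its result was not tested.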

Other observations

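Microfibrils hold TGF-beta and BMP ligands in the matrix, and 6 of these ligand genes were tested with edgeR. INHBA, BMP4 and TGFB1 rose in FT cells, TGFB2, TGFB3 and BMP2 did not pass, and 0 fell (all genes 20.1% higher and 18.9% lower). The number lower was also 0 with DESeq2 and with limma. Of all genes, DESeq2 called 2966 lower of 17663 (some without an adjusted p) and limma 3573 of 12247. Without FT_1, 3 were called higher and 3 lower beside 30.6% and 31.5% of all genes, the lower ones TGFB2, TGFB3 and BMP2 (edgeR, adjusted p = 0.00101, 8.1e-06 and 6.75e-04). INHBA, which encodes a subunit of activin A and had the highest mean of the list, had FPKM values of 55.55, 60.80 and 61.92 in FT_1, FT_2 and FT_3, and 7.32, 7.08 and 7.34 in WT_1, WT_2 and WT_3. All FT libraries were above all WT libraries (log2 fold change 3.20, standard error 0.09; edgeR, adjusted p = 1.71e-04). BMP4 rose by a log2 fold change of 1.64 and TGFB1 by 0.56 (edgeR, adjusted p = 0.00628 and 0.0329), and TGFB1 was not called with limma (adjusted p = 0.0942). BMP5, BMP7, BMP10 and MSTN did not pass the count filter of edgeR, and BMP5 was not called with DESeq2 (adjusted p = 0.222).

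Of the other marker lists, all but the adipocyte list were low. Summed FPKM was 0.63 to 1.52 over 7 endothelial genes (PECAM1 with the highest mean), 0.43 to 2.38 over 7 chondrocyte genes (SOX9), 0.03 to 1.93 over 2 skeletal myogenic genes (MYF5), 3.52 to 7.94 over 4 blood cell genes (CD14) and 5.83 to 14.95 over 3 Schwann and neural genes (S100B). KDR, an endothelial receptor, was listed at 0 in all 3 FT libraries, and COL2A1, the cartilage collagen, in all but FT_1. The adipocyte list summed to 4.90, 14.32 and 15.62 in FT_1, FT_2 and FT_3 and to 151.5, 136.7 and 154.2 in WT_1, WT_2 and WT_3. FABP4 made up most of it in WT libraries (127.86 to 143.41) but not in FT_1, FT_2 and FT_3 (0.08, 4.67 and 5.95). It was called lower (log2 fold change -5.10; edgeR, adjusted p = 0.0176), with a log2 fold change of -4.51 without FT_1. LPL was the larger gene in FT_2 and FT_3 and PPARG in FT_1, while ADIPOQ was listed at 0 in all FT libraries.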
